A study of Arabidopsis thaliana with 18 samples.

Results

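miR168 is the Arabidopsis miRNA that guides the silencing of the mRNA of ARGONAUTE1 (AGO1), the main effector protein of miRNA silencing. Its members were chosen by name, as the 5p and 3p strands of both miR168 precursors, and they made up 4 of the 422 mature miRNA rows of the deposited table. The 5p rows miR168a-5p and miR168b-5p have the same sequence and were summed, which left 3 distinct strands: the 5p guide (miR168-5p), miR168a-3p and miR168b-3p. Small RNAs were sequenced from whole 7-day-old seedlings of the Col-0 accession, all wild type. Seedlings were left under control conditions, exposed to heat stress at 37°C for 1 h (HS), or given the same HS and then 2 h at 22°C (recovery). From each condition, libraries were made from RNA that co-purified with immunoprecipitated AGO1 (AGO1-IP) and from total RNA, with no antibody, as 3 biological replicates each, which gave 6 groups and 18 libraries. The study drew the AGO1-IP and total RNA libraries from the same biological replicates.

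A miRNA gene is transcribed into a hairpin, from which DCL1 cuts a short duplex. One strand, the guide, is kept by AGO1, and the other, the passenger strand, is mostly discarded. The 5p strand of miR168 is the guide. AGO1 loaded with it acts on the AGO1 mRNA itself, so that miR168 and AGO1 form a feedback loop known for keeping AGO1 levels in balance. The 3p strands are the passengers, and since they differ between the genes they tell which precursor a read came from, whereas the 5p reads do not.

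The strands are shown because the guide is shared by both genes and the passengers are not. All are 21 nt long, with the seed (bases 2 to 8) in capitals, and sequences and coordinates are from RefSeq, assembly TAIR10.1.
miR168a-5p and miR168b-5p: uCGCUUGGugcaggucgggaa
miR168a-3p: cCCGCCUUgcaucaacugaau
miR168b-3p: cCCGUCUUguaucaacugaau
The guide starts with U, the first base that AGO1 is known to favour, and both passengers start with C. The 3p strands differ at C5U and C10U, written as the base of miR168a-3p, its position from the 5′ end and the base of miR168b-3p. The first of these lies in the seed, and no other listed miRNA shares a seed with any of the 3 strands.

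The strands come from MIR168a (AT4G19395, plus strand of chromosome 4) and MIR168b (AT5G45307, minus strand of chromosome 5), neither of which overlaps another annotated gene. The guide lies at chr4:10578652-10578672 and at chr5:18358873-18358893, miR168a-3p at chr4:10578737-10578757 and miR168b-3p at chr5:18358803-18358823. The annotated hairpins are shown to place both arms, in capitals.
MIR168a (chr4:10578635-10578772): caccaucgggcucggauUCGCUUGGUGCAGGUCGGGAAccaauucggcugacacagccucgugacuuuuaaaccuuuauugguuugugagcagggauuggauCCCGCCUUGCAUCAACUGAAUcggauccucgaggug
MIR168b (chr5:18358788-18358911): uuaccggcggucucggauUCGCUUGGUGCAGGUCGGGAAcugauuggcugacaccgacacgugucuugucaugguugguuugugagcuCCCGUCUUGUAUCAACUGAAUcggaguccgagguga
In the predicted fold of each hairpin, 17 of the 21 guide bases paired with the 3p arm. The stretch between the arms was 64 nt long in MIR168a and 49 nt long in MIR168b.

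The target is shown to place the guide. The best match to it in the AGO1 gene (AT1G48410, minus strand) lies at chr1:17891529-17891549, in exon 2 and within the coding sequence of 3 of 3 annotated transcripts, with Watson-Crick complements of the guide in capitals.
AGO1 site: UUCCCGAgCUGCAuCAAGCuA
Of the 21 guide bases, 18 had a Watson-Crick partner there and 1 a wobble partner. The AGO1 mRNA itself was not analysed here.

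Levels are read counts divided by the miRNA reads of the library and given as counts per 1e6 (CPM), so that each is a share of the miRNA reads. In whole seedlings, fewer cells that make a miRNA and less of it per cell cannot be told apart. The AGO1-IP libraries held 1374777 to 5745126 miRNA reads and the total RNA libraries 321918 to 1059362. Guides that other ARGONAUTEs are known to bind checked the AGO1-IP label. miR393b-3p, a partner of AGO2, had 163 ± 50.8 CPM in control AGO1-IP and 8729 ± 1493 CPM in control total RNA (mean ± SD, n = 3 each), a log2 fold change of −4.23 (edgeR adjusted p = 1.78e-08). miR390a-5p, the partner of AGO7, had 1000.3 ± 44.4 CPM in control AGO1-IP and 4476 ± 2098 CPM in control total RNA, with a log2 fold change of −0.61 that did not pass (edgeR adjusted p = 0.253). It passed in HS (−1.49, edgeR adjusted p = 0.00916) and not in recovery (−0.67, edgeR adjusted p = 0.225). These fits use TMM factors, which raise AGO1-IP relative to the plain CPM. Recovery replicate 1 stood apart among the AGO1-IP libraries, with 18.2% of its miRNA reads from miR156 strands against 36.5% to 46.8% in the others, and values without it are given beside the results that it moved most.

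The identical 5p rows shared their reads almost evenly. miR168a-5p took 49.9% of the 632304 summed 5p reads (Wilson 95% interval 49.8% to 50.01%), and 48.8% to 50.6% in single libraries. Since the rows are identical, the split does not tell the output of each gene, and how such reads were assigned is not given in the sources used here.

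In every group the guide was an abundant miRNA. By mean CPM it ranked 8, 11 and 10 among 345 distinct miRNA sequences in control, HS and recovery AGO1-IP, and 15, 19 and 17 in control, HS and recovery total RNA. From high to low, its level was 20070 ± 9556 CPM in recovery AGO1-IP, 18389 ± 3288 CPM in control AGO1-IP, 16187 ± 1781 CPM in control total RNA, 16142 ± 2638 CPM in HS AGO1-IP, 13334 ± 1804 CPM in recovery total RNA and 12177 ± 1746 CPM in HS total RNA. Neighbours in this order differed by less than the larger of their SDs, except HS AGO1-IP and recovery total RNA. The passengers were scarcer and ordered by fraction. miR168a-3p had 852 ± 280, 422 ± 81.6 and 592 ± 431 CPM in control, HS and recovery total RNA, and from 29.0 ± 9.80 to 39.5 ± 9.11 CPM in the AGO1-IP groups. miR168b-3p had 309 ± 31.6, 65.8 ± 28.0 and 145 ± 16.9 CPM in control, HS and recovery total RNA, and from 0.814 ± 0.787 to 1.44 ± 1.40 CPM in the AGO1-IP groups (SD, n = 3 throughout). The control, HS and recovery levels in total RNA were further apart than their SDs for miR168b-3p, but not all for miR168a-3p.

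**Figure D1:**
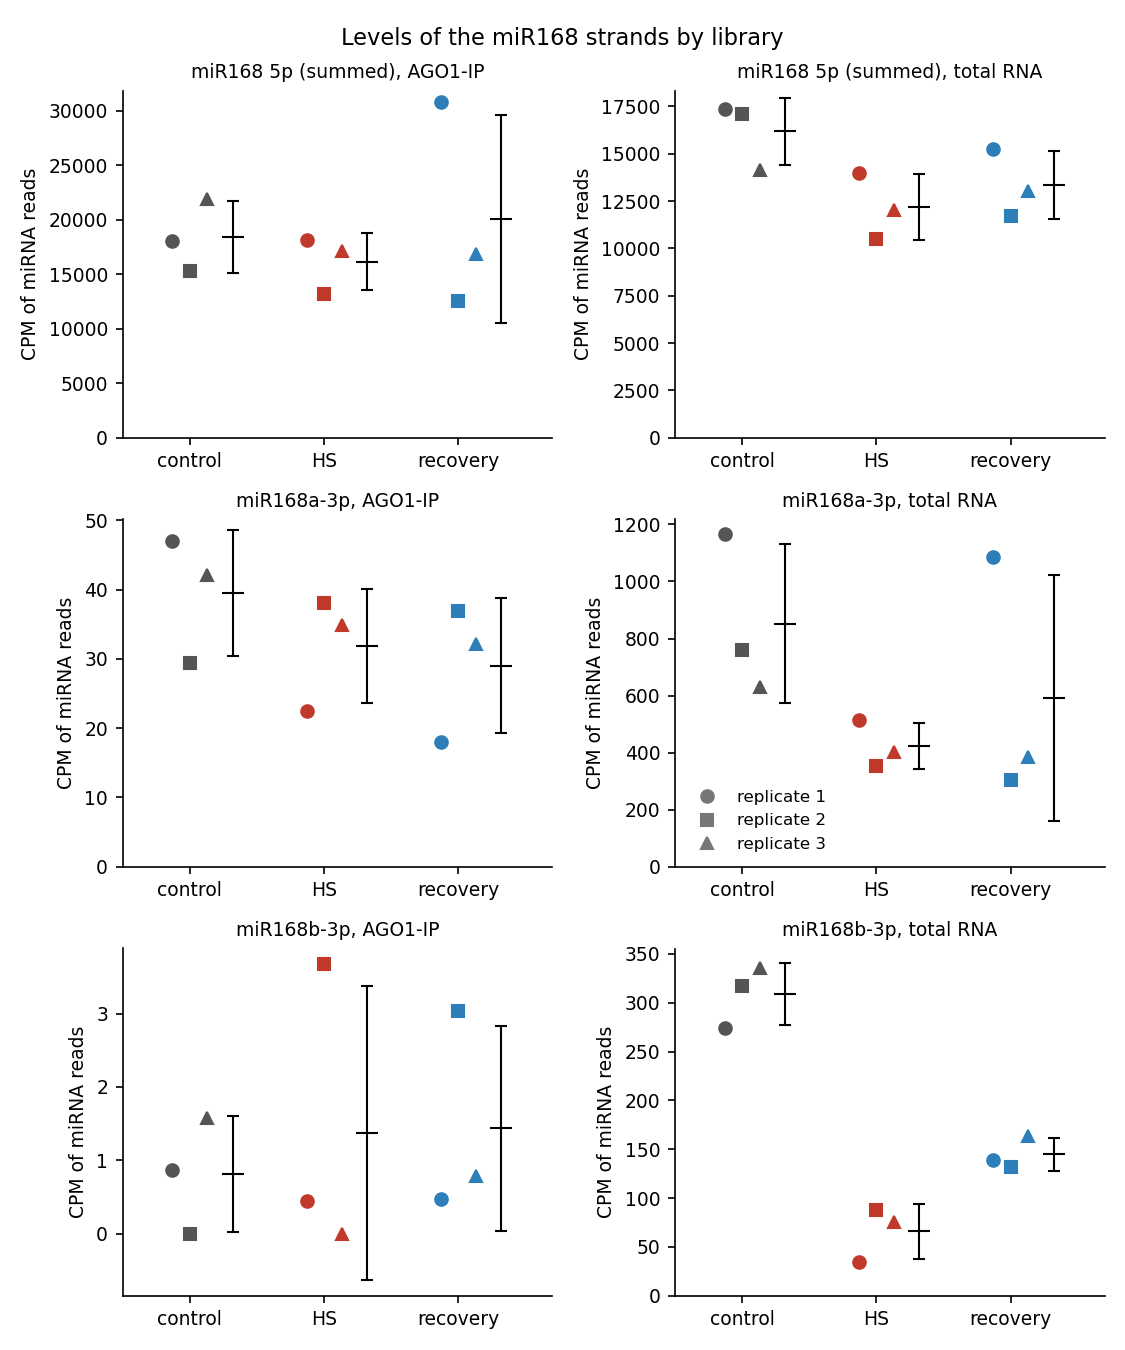
Level of the miR168 guide (5p, summed) and of both passenger strands in each library, in CPM of miRNA reads, with AGO1-IP on the left and total RNA on the right, and with a separate vertical axis for each panel. Symbols mark the replicate number, and bars the mean ± SD of 3 libraries. In total RNA, miR168b-3p lay between 34.2 and 87.4 CPM after HS, below all 3 control libraries.

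HS and control were compared first in total RNA, to ask whether miR168 accumulates differently under heat. All strands were lower in HS seedlings than in control, and the passenger of MIR168b by the most. miR168b-3p had 34.2, 87.4 and 75.9 CPM in HS total RNA (11, 43 and 56 reads in replicates 1, 2 and 3), against 274, 317 and 335 CPM in control total RNA (125, 336 and 293 reads). The groups were far apart, and every HS library lay below every control library. The log2 fold change was −2.20 ± 0.42 (SE), which did not pass in edgeR's quasi-likelihood test after Benjamini-Hochberg adjustment over all 228 miRNAs tested (adjusted p = 0.0726, n = 3 each). DESeq2, the tool the study used, gave adjusted p = 8.09e-05 at the same fold change. Across the alternatives the adjusted p ran from 8.09e-05 to 0.373 and the fold change from −2.58 to −1.95, always lower after HS. The study names this strand as changed on these same libraries, so that this difference is not independent evidence. Separately, the study reports a lower accumulation of miR168 during HS by small RNA gel blot, which was not analysed here.

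miR168a-3p, the passenger of MIR168a, had 513, 354 and 401 CPM in HS total RNA and 1167, 759 and 631 CPM in control total RNA. Here too the groups did not overlap, with control replicate 1 the highest library. The log2 fold change was −0.996 ± 0.44 (edgeR adjusted p = 0.428). The guide had 13985, 10501 and 12044 CPM in HS total RNA and 17346, 17079 and 14136 CPM in control total RNA, with a log2 fold change of −0.42 ± 0.20 (edgeR adjusted p = 0.435). The highest HS library lay just under the lowest control library. edgeR called 0% of the miRNAs tested in this comparison, with 26 at an unadjusted p under 0.05, while the only call of DESeq2 was miR168b-3p. With the replicate number as a block, edgeR called 10 of the 228 miRNAs higher and 13 lower. miR168b-3p was the only miR168 strand among these (edgeR adjusted p = 1.51e-04). All HS libraries lay below all control libraries for 3 of the 3 miR168 strands, against 14% of the miRNAs tested.

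The passenger to guide ratio is taken within a library and does not depend on the scaling between libraries. There were 3.91, 4.20 and 3.96 3p reads per 100 5p reads in HS total RNA, and 8.31, 6.30 and 6.84 in control total RNA. The HS libraries were close to each other, and all lay below the control libraries. The ratio was 1.77-fold lower after HS, a log2 difference of −0.82 (exact two-sided permutation test, p = 0.1, the smallest that 3 against 3 libraries allow). Taken alone, miR168a-3p per guide read differed by −0.57 and miR168b-3p by −1.92 on the log2 scale, each with no overlap of the groups (exact permutation test, p = 0.1). miR168b-3p made up 6.25%, 19.8% and 15.9% of the 3p reads in HS total RNA and 19.0%, 29.5% and 34.7% in control total RNA. This share was lower after HS at each replicate number, but the groups overlapped (difference −13.7 percentage points, exact permutation p = 0.2). Replicate 1 had the lowest share in each of the 3 conditions.

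**Figure D2:**
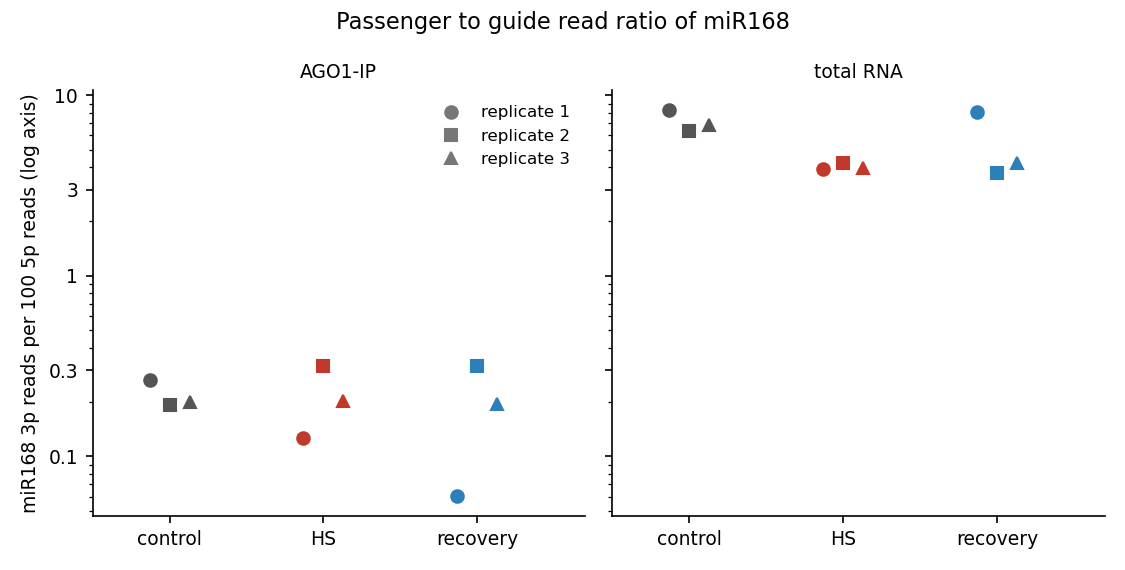
Reads of both miR168 3p strands per 100 reads of the 5p guide in each library, on a log axis, with AGO1-IP on the left and total RNA on the right. Symbols mark the replicate number. The AGO1-IP libraries lie between 0.0601 and 0.319 and the total RNA libraries between 3.72 and 8.31, with the HS total RNA libraries below the control total RNA libraries.

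The next comparisons asked how far the strands returned in recovery. They share the control or the HS libraries with the comparison above. miR168b-3p had 139, 132 and 164 CPM in recovery total RNA, below its 274, 317 and 335 CPM in control total RNA and above its 34.2, 87.4 and 75.9 CPM in HS total RNA. The recovery libraries thus lay between those of HS and control, with no overlap on either side. The log2 fold change was −1.15 ± 0.41 for recovery against control (edgeR adjusted p = 0.995) and 1.05 ± 0.41 for recovery against HS (edgeR adjusted p = 0.856), neither of which passed. edgeR called 0% of the 228 miRNAs in either of these comparisons, with 4 and 7 at an unadjusted p under 0.05. All recovery libraries lay below all control libraries for 3.51% of the miRNAs tested, and miR168b-3p was the only one of the 3 strands to do so. The share of all miRNAs with recovery wholly above HS was not counted, so that the lack of overlap on that side has no background.

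miR168a-3p had 1087, 304 and 384 CPM in recovery total RNA and 1167, 759 and 631 CPM in control total RNA. Recovery replicate 1 lay within the control range, and the others lay below all control libraries. The log2 fold change against control was −0.60 ± 0.44 (edgeR adjusted p = 0.995), and without single libraries it ran from −1.34, without recovery replicate 1, to −0.30, without recovery replicate 2 (edgeR adjusted p = 0.646 and 0.991). The guide had 15268, 11696 and 13038 CPM in recovery total RNA, which overlapped its control libraries (log2 fold change −0.34 ± 0.20, edgeR adjusted p = 0.995). The 3p to 5p ratio was 8.03, 3.72 and 4.20 per 100 in recovery total RNA, against 8.31, 6.30 and 6.84 per 100 in control total RNA. Only recovery replicate 1 overlapped the control libraries. The log2 difference was −0.50 (exact permutation p = 0.3), and without single libraries it ran from −0.84, without recovery replicate 1, to −0.29, without recovery replicate 2 (exact permutation p = 0.1 and 0.6). Both the ratio and the guide were lower in recovery than in control at 3 of 3 replicate numbers.

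Within AGO1-IP the comparison asked whether the miR168 bound to AGO1 changed. The guide overlapped between all conditions. It had 17993, 15317 and 21858 CPM in control AGO1-IP, 18152, 13154 and 17118 CPM in HS AGO1-IP and 30819, 12539 and 16851 CPM in recovery AGO1-IP. Recovery replicate 1 was by far the highest and recovery replicate 2 the lowest of the 9 libraries. The log2 fold change was 0.01 ± 0.41 for HS and 0.10 ± 0.41 for recovery against control, and 0.09 ± 0.41 for recovery against HS (edgeR adjusted p = 1.00, 0.955 and 0.938). The sign for HS turned under several alternative settings and without single libraries, and without recovery replicate 1 the recovery values were −0.27 against control and −0.18 against HS.

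The passengers were scarce in AGO1-IP. miR168a-3p had 47.0, 29.3 and 42.1 CPM in control AGO1-IP, 22.5, 38.0 and 34.9 CPM in HS AGO1-IP and 18.1, 36.9 and 32.1 CPM in recovery AGO1-IP. The conditions overlapped, with log2 fold changes of −0.10 ± 0.45 for HS and −0.35 ± 0.45 for recovery against control (edgeR adjusted p = 1.00 and 0.917). Without recovery replicate 1 the recovery value was −0.11. miR168b-3p had 5, 0 and 5 reads in control AGO1-IP, 2, 17 and 0 reads in HS AGO1-IP, and 1, 14 and 2 reads in recovery AGO1-IP. It did not pass the filter on low counts and was not tested there. A library with 0 reads was taken to allow up to 3, a fixed setting. This is 2.18 CPM in HS replicate 3 and 0.917 CPM in control replicate 2. For 0 reads of miR168b-3p, the exact two-sided 95% Poisson interval reaches 3.69 reads. Fitted without the filter, its log2 fold change was 1.15 ± 1.03 for HS against control and 1.21 ± 1.04 for recovery against control (edgeR adjusted p = 1.00 and 0.906). Among the 214 miRNAs tested, edgeR called 1.4% for HS against control, 0.467% for recovery against control and 0.467% for recovery against HS, none of them a miR168 strand. With the replicate number as a block, 4 were called for recovery against HS, against 1 without it, and again none was a miR168 strand. The 3p to 5p ratio was 0.126, 0.317 and 0.204 per 100 in HS AGO1-IP and 0.266, 0.192 and 0.200 per 100 in control AGO1-IP, a log2 difference of −0.11 with overlap (exact permutation p = 1.00).

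The comparison of AGO1-IP with total RNA asked which strands AGO1 holds. In every condition the passengers were depleted in AGO1-IP relative to the guide. In control, the 3p to 5p ratio was 0.266, 0.192 and 0.200 per 100 in AGO1-IP, against 8.31, 6.30 and 6.84 per 100 in total RNA. In HS it was 0.126, 0.317 and 0.204 per 100 in AGO1-IP, against 3.91, 4.20 and 3.96 per 100 in total RNA. In recovery it was 0.0601, 0.319 and 0.195 per 100 in AGO1-IP, against 8.03, 3.72 and 4.20 per 100 in total RNA. No AGO1-IP library came near any total RNA library. The ratio was 32.8-fold lower in AGO1-IP in control, 20.0-fold lower in HS and 32.3-fold lower in recovery, which are log2 differences of −5.03, −4.32 and −5.01 (exact permutation p = 0.1 each, the smallest possible). The recovery value rests in part on AGO1-IP replicate 1, which had the lowest ratio, and was −4.33 without it.

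Over all conditions the log2 difference of the ratio was −4.79, or 27.6-fold lower in AGO1-IP, and it was lower at 9 of 9 replicate numbers (exact two-sided permutation test within conditions, n = 9 each, p = 0.00025, the smallest it can give). The exact permutation tests of AGO1-IP against total RNA, above and below, permuted the libraries of a condition freely. They did not use the pairing of the fractions by biological replicate, so that their p-values treat the libraries as independent. Without recovery AGO1-IP replicate 1 it was −4.56.

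The passenger of MIR168b was depleted further than that of MIR168a. miR168b-3p made up 1.82%, 0% and 3.60% of the 3p reads in control AGO1-IP and 19.0%, 29.5% and 34.7% in control total RNA. It made up 1.96%, 8.81% and 0% in HS AGO1-IP and 6.25%, 19.8% and 15.9% in HS total RNA, and 2.56%, 7.61% and 2.41% in recovery AGO1-IP and 11.4%, 30.2% and 29.9% in recovery total RNA. The fractions overlapped in HS only. Pooled over libraries, 46 of 1159 3p reads in AGO1-IP came from miR168b-3p (3.97%, exact 95% interval 2.92% to 5.26%), against 1112 of 4481 in total RNA (24.8%, 23.6% to 26.1%). These intervals cover counting error only, since the libraries were amplified by PCR without described molecular identifiers. The share was lower in AGO1-IP at 9 of 9 replicate numbers, with a difference of −18.7 percentage points (exact permutation test within conditions, n = 9 each, p = 0.0005), and −18.4 points without recovery AGO1-IP replicate 1 (p = 0.00125).

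**Figure D3:**
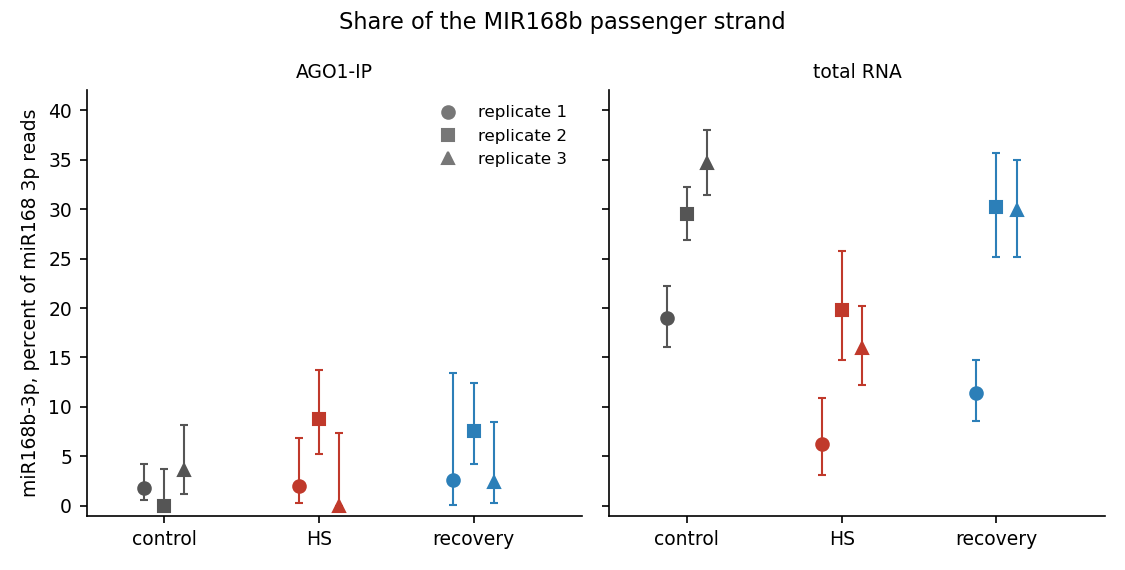
miR168b-3p as a percent of all miR168 3p reads in each library, with AGO1-IP on the left and total RNA on the right. Symbols mark the replicate number, and bars the exact 95% binomial interval, which covers counting error only. AGO1-IP libraries lie between 0% and 8.81% and total RNA libraries between 6.25% and 34.7%.

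The strands were also tested one by one. The guide was higher in AGO1-IP than in total RNA with TMM factors, by 1.69 ± 0.26 in control, 1.98 ± 0.26 in HS and 1.83 ± 0.26 in recovery on the log2 scale (edgeR adjusted p = 9.02e-06, 9.63e-07 and 3.29e-06). miR168a-3p fell, with log2 fold changes of −2.89 ± 0.53, −2.15 ± 0.52 and −2.73 ± 0.53 in control, HS and recovery (edgeR adjusted p = 6.63e-05, 0.00106 and 1.26e-04). miR168b-3p had −7.00 ± 0.98, −3.73 ± 0.87 and −4.90 ± 0.90 in control, HS and recovery (edgeR adjusted p = 3.22e-06, 8.04e-04 and 7.26e-05). It passed the filter on low counts only through total RNA, where it is high, so that the direction of its difference was set by that choice and supports nothing by itself. Differences of this kind were common, and edgeR called 65.3%, 66.4% and 63.8% of the 268 miRNAs tested in control, HS and recovery.

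The rise of the guide depended on the scaling. With library size alone it was 0.18, 0.41 and 0.59 in control, HS and recovery (edgeR adjusted p = 0.636, 0.266 and 0.116), and with RLE factors 0.91, 1.38 and 1.41. The scalings also moved the median of all miRNAs tested, which in control was 0.13 with TMM factors, −0.72 with RLE factors and −1.43 with library size alone. They moved the split of calls too, with 92 higher and 83 lower in AGO1-IP in control with TMM factors, 53 and 115 with RLE factors, and 31 and 130 with library size alone. Relative to that median the guide was 1.57, 1.63 and 1.61 higher in control AGO1-IP than in control total RNA under the 3 scalings, and 2.00 to 2.21 higher in HS and recovery. A scaling shifts all miRNAs nearly alike, so that this likeness between scalings was set in advance and supports nothing by itself. The median also depends on the filter. In control with TMM factors it was 0.58 at a mean of at least 50 counts. On the plain CPM scale the guide made up 1.82 ± 0.549% of the miRNA reads in AGO1-IP and 1.39 ± 0.236% in total RNA (SD, n = 9 each), and it was higher in AGO1-IP at 8 of 9 replicate numbers. The difference of 0.430 percentage points gave p = 0.0208 (exact permutation test within conditions), with 0.251 points and p = 0.043 without recovery AGO1-IP replicate 1. Without recovery total RNA replicate 2 or 3 it did not pass (exact permutation p = 0.077 and 0.0665). Within each condition the fractions overlapped, with exact permutation p = 0.4, 0.2 and 0.3 in control, HS and recovery. This test of the share was chosen after the data had been seen. miR168a-3p was lower in AGO1-IP under all 3 scalings.

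**Figure D4:**
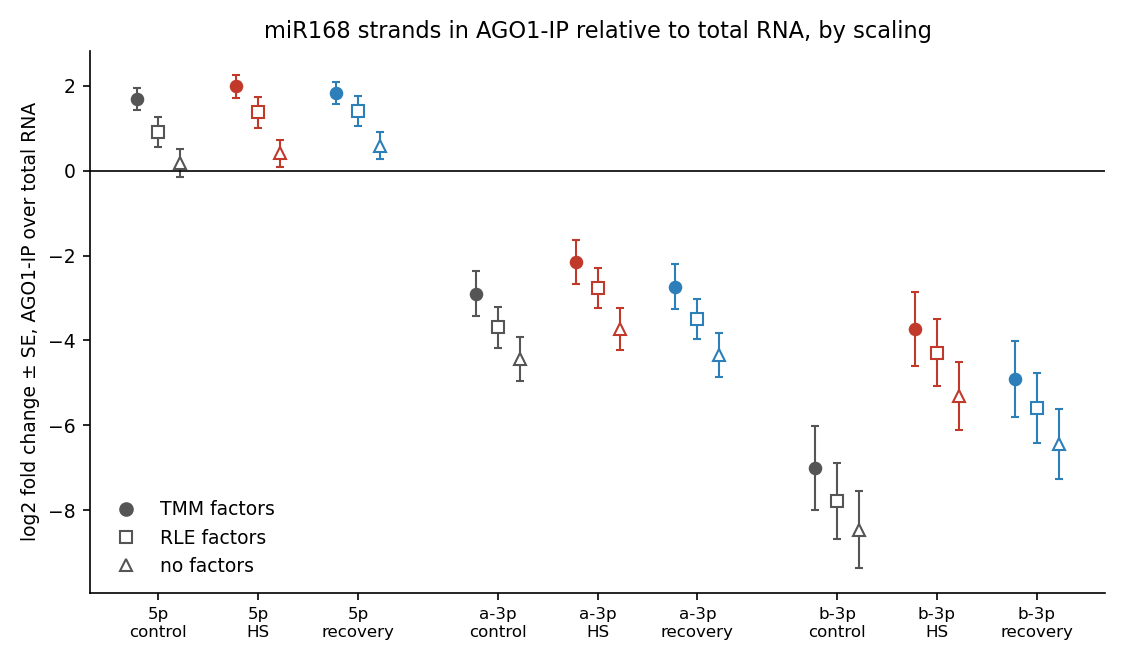
log2 fold change ± SE of AGO1-IP over total RNA for the guide (5p), miR168a-3p and miR168b-3p in each condition, from edgeR fits of all 18 libraries. Filled circles are TMM factors, open squares RLE factors and open triangles library size alone. The guide lies between 0.18 and 1.98, and miR168a-3p at −2.15 or lower throughout. miR168b-3p is shown for completeness, since it passed the filter on low counts only through total RNA.

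The loading change of a strand, its change in AGO1-IP minus its change in total RNA, was tested as an interaction in the same fit. No miR168 strand passed. For HS against control the log2 difference was 3.27 ± 1.22 for miR168b-3p, 0.74 ± 0.70 for miR168a-3p and 0.29 ± 0.36 for the guide (edgeR adjusted p = 0.468, 0.968 and 0.968). miR168b-3p passed the filter on low counts in this fit only through total RNA. Its fall in total RNA enters the difference with the opposite sign. Its loading changes, here and in recovery, thus support nothing by themselves. For HS, the value of miR168b-3p rests on its 19 reads in HS AGO1-IP, of which replicate 2 held 17, and 10 in control AGO1-IP. Leaving out single libraries moved it from 1.13, without HS AGO1-IP replicate 2, to 3.89. For recovery against control the log2 differences were 2.10 ± 1.20, 0.16 ± 0.70 and 0.14 ± 0.36 in the same order of strands (edgeR adjusted p = 0.996 for each), and that of miR168b-3p was 0.47, without recovery AGO1-IP replicate 2, to 2.65 when single libraries were left out. edgeR called 0.373% of the 268 miRNAs for HS against control, 0% for recovery against control and 0% for recovery against HS.

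The arms of other stems give the scale of these ratios. Both arms were measured at a mean of at least 50 reads for the minor arm in total RNA in 35 stems, of which 33 were others than miR168. This comparison was chosen after miR168 values had been seen, and 1 read was added to each arm. The stems were kept on the reads of the minor arm in total RNA, which by itself favours a lower ratio in AGO1-IP, so that the counts and ranks below are descriptions and support nothing. The minor arm is the arm with fewer reads over the total RNA libraries, which need not be the passenger. Values above 0 are thus not to be read as passengers enriched in AGO1-IP. The log2 ratio of minor to major arm was lower in AGO1-IP than in total RNA in 25 of the 33 other stems. Its median was −2.90 and its range −7.91 to 6.45. miR168b-3p over the guide had −7.28, the fourth lowest of the 35, and miR168a-3p over the guide −4.46, at rank 14. Several of the stems share a major arm or are close copies, so that they are not independent.

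For HS against control in total RNA, the ratio of the other stems had a median log2 difference of −0.13, with 21 of 33 below 0. All HS libraries lay below all control libraries in 3 of the 33 (9.09%), namely miR158a, miR159b and miR165a, and above them in 2. miR168b-3p over the guide had −1.87, the third lowest, after miR159b at −3.28 and miR158a at −2.03, and miR168a-3p over the guide −0.56, at rank 14. Both ratios of miR168 were without overlap. For recovery against control, miR168b-3p over the guide had −0.80 and was again without overlap, while 2 of the other stems (miR158a and miR165a) lay wholly below control and 1 (miR393a) wholly above.

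**Figure D5:**
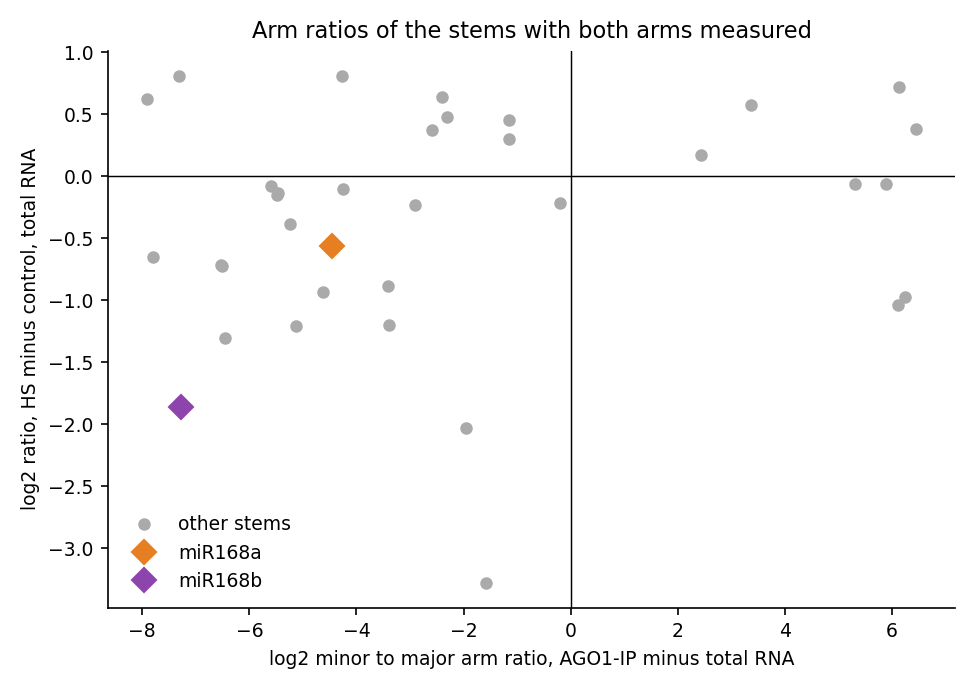
log2 ratio of the minor to the major arm of 35 miRNA stems, as the difference of AGO1-IP minus total RNA (horizontal) against that of HS minus control in total RNA (vertical). The minor arm is the arm with fewer reads in total RNA, which need not be the passenger. Each point is a stem, and diamonds are miR168a-3p and miR168b-3p over the shared guide. miR168b-3p lies at −7.28 and −1.87 and miR168a-3p at −4.46 and −0.56.

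Other miRNAs act on the silencing machinery as well: miR162 targets the mRNA of DCL1 and miR403 that of AGO2. Of their 6 rows, all were tested in each comparison, and 0 rose and 0 fell in any comparison between conditions. The rows are not independent, since miR162a-3p and miR162b-3p have the same sequence. For HS against control in total RNA, all 6 had log2 fold changes below 0, from −0.83 to −0.0046. None passed (edgeR adjusted p = 0.598 or higher). Their median was −0.35 against −0.01 for all miRNAs tested, and with that median so near 0, values below 0 were common among all miRNAs. In AGO1-IP against total RNA, 4 rose and 0 fell in each condition with TMM factors, where over all 268 miRNAs 92 rose and 83 fell in control, 79 and 99 in HS, and 84 and 87 in recovery. Their median in control was 2.47 against 0.13 for all miRNAs. With library size alone only 31 of all miRNAs rose in control. The guide miR162a-3p had 2620 ± 585 CPM in control AGO1-IP and 767 ± 285 CPM in control total RNA (log2 fold change 3.32 ± 0.41, edgeR adjusted p = 5.43e-07). miR403-3p, the guide of its stem, had 13373 ± 3439 CPM in control AGO1-IP and 6298 ± 1339 CPM in control total RNA (log2 fold change 2.60 ± 0.49, edgeR adjusted p = 9.95e-05). The other members that rose were miR162b-3p, which has the sequence of miR162a-3p, and miR403-5p, the passenger of its stem. The log2 fold change of miR403-5p was 2.33, 3.12 and 2.25 in control, HS and recovery (edgeR adjusted p = 0.0157, 0.00294 and 0.0202). The passengers of miR162, miR162a-5p and miR162b-5p, did not pass in any condition. The passengers on this list thus did not behave alike. The mean CPM of the 4 members that rose was higher in AGO1-IP in every condition with no scaling factor. These 4 were picked for rising in the same libraries, so that this is a description and supports nothing by itself. On that scale miR162a-5p and miR162b-5p were lower in AGO1-IP in every condition. In control they had 9.68 and 9.81 CPM in AGO1-IP, against 76.0 and 58.7 CPM in total RNA.

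The miRNAs whose levels were most like those of each strand over the 9 libraries of a fraction were found by Pearson's r of log2 CPM. These values are descriptions, over libraries that share replicate numbers and conditions. Each partner was picked as among the highest of 148 other miRNA rows in total RNA or 163 in AGO1-IP. With only 9 libraries, that choice by itself favours a high r. In total RNA, the guide was most like miR167a-3p (r = 0.88), and 0.81 without the 2 libraries farthest from the median of the guide. miR168a-3p was most like miR167d (r = 0.95, 0.90 without the 2 farthest libraries), and miR168b-3p most like miR173-5p (r = 0.84, 0.62 without them) and miR165a-5p (r = 0.82 with and without them). miR173-5p is the guide that starts tasiRNA production from TAS1 and TAS2 transcripts. In AGO1-IP, the guide was most like the guides of miR166, which share their sequence in 7 rows (miR166e-3p, r = 0.97, and 0.88 without the 2 farthest libraries, one of them recovery replicate 1). miR168a-3p in AGO1-IP was most like miR167d (r = 0.90, 0.72 without the 2 farthest libraries).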

How the data were processed

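Small RNAs of 18 libraries were measured. Per the labels, the input was 100 ng, the kit RealSeq v2 and the number of PCR cycles 15. The submitters' processing notes name Cutadapt 2.9 and Bowtie2, and reads were mapped to TAIR10. How reads of several loci were counted, and whether strand was used, is not given in the sources used here. Raw counts per mature miRNA, not normalised, were deposited by the authors. Of 422 rows, 121 share their sequence with another row. Library size here is the sum of miRNA reads, not whole sequencing depth. Replicates of a group differed far beyond counting noise.

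miR168a-5p and miR168b-5p were summed, and the counts were fitted in R 4.3.3 with edgeR 4.0.16 (glmQLFit, robust, glmQLFTest), TMM factors, filterByExpr and Benjamini-Hochberg adjustment at 0.05. Conditions were compared within the 9 libraries of each fraction, and fractions and interactions in 1 fit of 18 libraries. The code was tested on simulated data. Exact two-sided permutation tests were used for ratios within a library, and they treated the libraries as unpaired. The hairpins were folded with RNAfold 2.7.2. The miR162 and miR403 strands, the miR390 and miR393b checks and the 3 most similar miRNAs of each strand were named by rule, but members and lists were chosen with earlier results of these data known. Alternatives were other scalings, filters, row sums, DESeq2 1.42.0, fewer or more libraries in a fit, the replicate number as a block, and leaving out each library.

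Same-numbered libraries deviated together, with every correlation over 0.1, for recovery against control (0.266 to 0.783) and recovery against HS (0.502 to 0.816) in total RNA, for recovery against HS in AGO1-IP (0.388 to 0.576), and for AGO1-IP against total RNA in control (0.118 to 0.282). The pairing there comes from replicate numbers in the titles and this check. The tasiRNA counts the authors deposited served only as an alternative library size.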

Additional observations from a re-analysis of the deposited data

How the results depend on the processing

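miR168b-3p, HS against control in total RNA, did not pass in the edgeR fit reported (−2.20, adjusted p = 0.0726). It passed with RLE factors (−2.21, adjusted p = 0.0442), no factors (−2.21, 0.0455), without miR156 and miR157 rows (−2.32, 0.0386), DESeq2 (−2.20, 8.09e-05), no filter (−2.20, 0.0388), identical sequences summed (−2.30, 0.0263) and the replicate block (−2.24, 1.51e-04). It did not pass with library sizes that count TAS reads (adjusted p = 0.0672), a mean of at least 50 counts (0.0705), 5p rows as deposited (0.0698), only the 2 groups compared (0.146) or 1 fit of 18 libraries (0.364). Without single libraries its adjusted p was 0.0961 to 0.373. The check used for pairing asks every correlation to be over 0.1. These libraries failed it through replicate 2 (0.0435), while replicates 1 and 3 had 0.617 and 0.773. Moreover, 9 of 9 total RNA and 8 of 9 AGO1-IP libraries correlated best with their own number. The fit reported thus leaves out a replicate number that the total RNA libraries share. The block raised the count of calls to 23 from 0. In the other comparisons the replicate block changed no call of a miR168 strand.

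The guide was no longer called in AGO1-IP against total RNA with no factors (0.18, 0.41 and 0.59 in control, HS and recovery). Its values near 0 changed sign. For HS against control in AGO1-IP the value was −0.19 with no factors, −0.0067 without miR156 and miR157 rows, −0.084 at a mean of at least 50 counts, −0.12 with 5p rows as deposited, −0.10 with identical sequences summed, −0.029 with the replicate block, −0.076 with only both groups and −0.11 in 1 fit of 18 libraries. For recovery it was −0.035 with 5p rows as deposited and −0.15 in 1 fit of 18 libraries against control, and −0.046 in that fit against HS. Its change of loading, recovery against HS, was −0.15, but 0.033 with RLE factors, 0.18 with no factors, 0.069 without miR156 and miR157 rows, 0.033 with DESeq2 and 0.34 with identical sequences summed. None of these passed the test.

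The 3p to 5p log2 ratio moved beyond the replicate SD where 1 passenger was taken alone. With miR168a-3p it was −0.57 for HS against control in total RNA and −4.59 for AGO1-IP against total RNA in control. With miR168b-3p it was −1.92 and, for recovery against HS, 1.11 in total RNA, 0.50 for HS against control in AGO1-IP, and −8.34, −5.92 and −7.60 for AGO1-IP against total RNA in control, HS and recovery. Libraries with 0 miR168b-3p reads (control AGO1-IP replicate 2 and HS AGO1-IP replicate 3) give no such ratio and were left out, so that these values use the libraries with reads only and understate the depletion in control and HS.

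Leaving out single libraries gave ranges that crossed 0 only for values that passed in no such fit. For the guide in AGO1-IP these were −0.19 to 0.17 for HS and −0.27 to 0.45 for recovery against control, and −0.18 to 0.46 for recovery against HS. For its change of loading they were −0.038 to 0.43 for HS against control and −0.28 to 0.10 for recovery against HS. For miR168a-3p they were −0.33 to 0.0078 for HS against control and −0.44 to 0.12 for recovery against HS in AGO1-IP, −0.30 to 0.69 for recovery against HS in total RNA, and −0.30 to 0.74 (recovery against control) and −1.09 to 0.18 (recovery against HS) for its change of loading. For miR168b-3p the change of loading, recovery against HS, was −2.86 to 0.96. The guide's share of miRNA reads, AGO1-IP minus total RNA, was 0.251 to 0.556 points (exact permutation p = 0.004 to 0.077), an alternative chosen after seeing the data. The cause of these changes was not tested.

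Counts of calls differed by over 1.5 times in some settings. In AGO1-IP, HS against control had 3 calls, and 5 with DESeq2, no filter, identical sequences summed or only both groups, and 7 with the replicate block. Recovery against control had 1, and up to 6 with no filter, and recovery against HS 1, and 0 without miR156 and miR157 rows to 8 without recovery AGO1-IP replicate 2. AGO1-IP against total RNA had 175, 178 and 171, and 94, 111 and 99 at a mean of at least 50 counts, where fewer miRNAs were tested. The change of loading, HS against control, had 1, and 0 to 2. In AGO1-IP, miR168b-3p had 0 to 17 reads a library, which limits any statement on it there.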
